A study of Nicotiana tabacum with 18 samples.

Results

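Leaves of the tobacco hybrid K326×GDH11 were compared with leaves of its female parent K326. The comparison used 6 of the 18 RNA-seq libraries of the study, 3 of the hybrid and 3 of K326, and was made on every gene with at least 1 FPKM in at least 3 of these 6 libraries, which left 32792 of 69500 genes. FPKM gives the sequenced fragments of a gene relative to its transcript length and to the mapped total of that library. The hybrid came from K326 as the female and GDH11 as the male parent, and K326 is a tobacco cultivar whose genome also served as the reference for mapping. The other groups, each of 3 libraries, were GDH11 grown with this cross, the second hybrid G70×GDH11, its female parent G70 and GDH11 grown with that cross. Every library came from middle leaves at 70 days, no treatment or introduced allele is labelled in any group, and each replicate was a mixture of leaves of several field plants. The study asked how expression in leaves of hybrids relates to their K+ content.

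K+ is the main inorganic cation of plant cells, where it sets turgor, moves the stomata and balances charge in the chloroplast. In a leaf it crosses the plasma membrane through voltage-gated channels and is stored in the vacuole through channels and cation/proton antiporters. A hybrid of parents with different alleles can hold a transcript at the level of either parent, between both, or outside their range, and tobacco is an allotetraploid, so many genes have a near-identical copy between which reads can be split. The deposited identifiers carry no gene names apart from the K+ genes that the study listed, so genes without a name are described by level alone.

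Hybrid replicate 1 stood apart from the other hybrid libraries. On log2(FPKM + 1) its Pearson correlation was 0.951 with K326 replicate 1, 0.936 with K326 replicate 3 and 0.914 with K326 replicate 2, against 0.909 and 0.914 with hybrid replicates 2 and 3, which correlated at 0.974 with each other. On the first principal component, which held 55.7% of the variance, hybrid replicate 1 lay at −11.8, hybrid replicates 2 and 3 at 83.9 and 85.5, and the K326 libraries between −68.8 and −39.7. The sums of FPKM per library did not separate it (802012.67 to 813750.59 in the hybrid and 756861.83 to 808499.28 in K326), and between 38.0% and 39.2% of genes were listed at 0 in each of the 6 libraries. The number of reads behind a value is unknown from FPKM, so the spread between the 3 libraries of a group is the only error given. Counts over genes are therefore given with and without hybrid replicate 1.

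**Figure D1:**
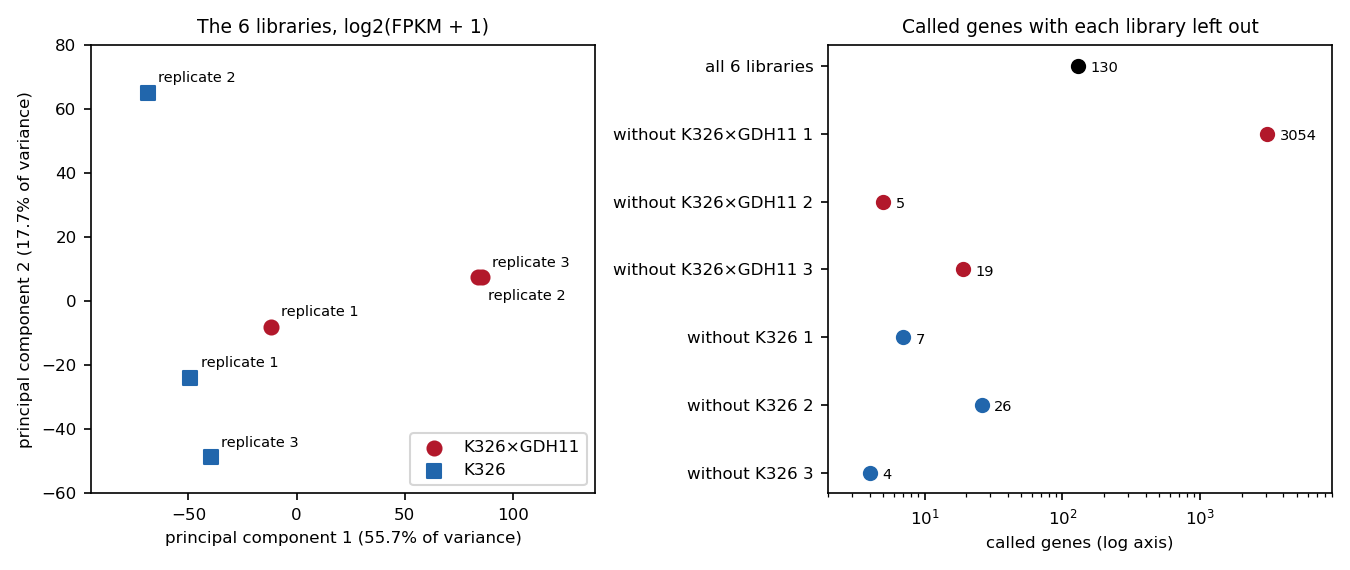
Left, the 6 libraries on the first and second principal components of log2(FPKM + 1), with K326×GDH11 as circles and K326 as squares, where hybrid replicate 1 at −11.8 lies nearer to the K326 libraries than to hybrid replicates 2 and 3 at 83.9 and 85.5. Right, the number of called genes (log axis) with all 6 libraries (130) and with each library left out, between 4 and 3054.

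With all 6 libraries, 77 genes were higher and 53 genes were lower in K326×GDH11 than in K326 (limma, Benjamini-Hochberg adjusted p of at most 0.05 and a difference of at least 1 in log2(FPKM + 1)). Together these 130 called genes were 0.396% of the genes tested, and the shares for the 2 directions were 0.235% and 0.162%. The median difference of the called genes was 1.96 for those higher and −2.13 for those lower, while over all genes tested it was 0.03. The rises lay between 1.11 and 6.16 and the falls between −4.14 and −1.13. The rises were mostly of genes that K326 leaves held at low level, with a median of 8.20 FPKM in the hybrid and 0.693 FPKM in K326. The falls had a median of 2.25 FPKM in the hybrid and 15.2 FPKM in K326. With the replicate number as a block in the fit, 0 genes were called. Without hybrid replicate 1 the count was 3054, or 9.12% of the 33495 genes that then had at least 1 FPKM in at least 2 of the 5 libraries, of which 1455 (4.34%) were higher and 1599 (4.77%) lower. Over the 32792 genes tested with all libraries, it was 1350 higher and 1591 lower. All 130 genes were among them in the same direction. Hybrid replicate 1 was singled out for lying near K326, so leaving it out can raise the count. Without it the median difference was 1.99 for the 77 rises and −2.20 for the 53 falls. Why the count rose was not tested. The other 5 libraries are also part of the 6, so the count of 3054 and the kept calls are not independent evidence. Leaving out any one of the other 5 libraries gave between 4 and 26 genes (5 without hybrid replicate 2, 19 without hybrid replicate 3, and 7, 26 and 4 without K326 replicates 1, 2 and 3). All 3 hybrid libraries lay above all 3 K326 libraries for 15.7% of all genes tested and below them for 9.23%. At the border of a call, Nitab4.5_0000014g0210 had an adjusted p of 0.0499 and the uncalled gene Nitab4.5_0000539g0100 one of 0.0508, both from limma.

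**Figure D2:**
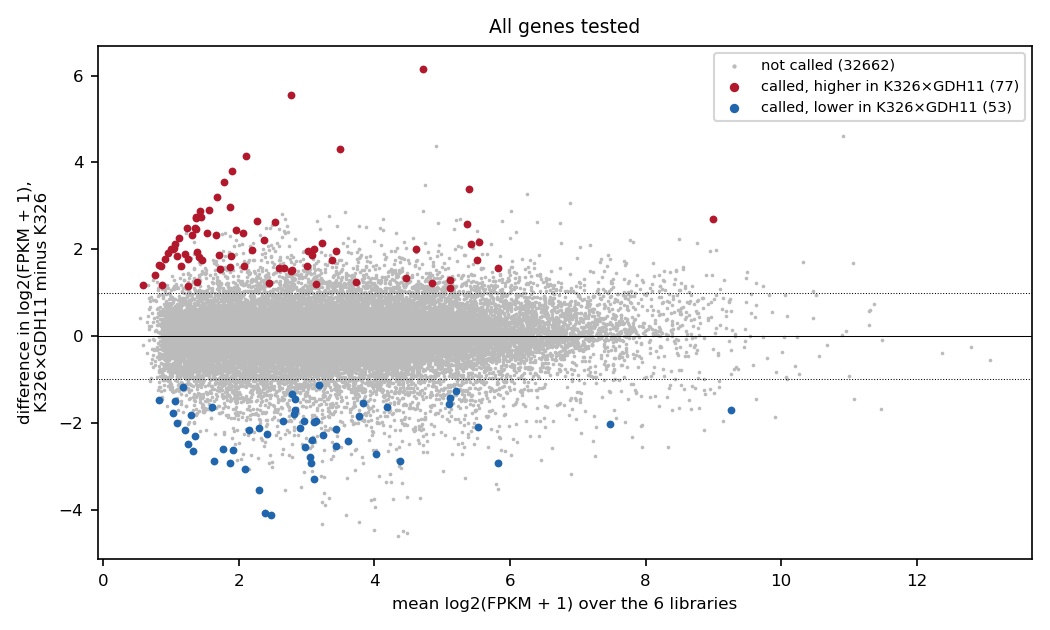
Difference in log2(FPKM + 1), K326×GDH11 minus K326, against the mean log2(FPKM + 1) over the 6 libraries, 1 point per gene tested. The 77 genes called higher lie above 1 and the 53 called lower lie below −1 (dotted lines), and many genes with differences of that size were not called.

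Nitab4.5_0000697g0230 had the largest rise among the called genes. Its level was 231.61, 188.85 and 248.76 FPKM in K326×GDH11 leaves and 0.86, 3.44 and 2.66 FPKM in K326 leaves. All 3 hybrid libraries, replicate 1 included, were far above the K326 libraries, and the difference was 6.16 ± 0.33 (log2(FPKM + 1), SE, adjusted p = 0.00279 by limma). The male parent did not hold this level, as GDH11 of the same cross had 1.69, 12.61 and 6.89 FPKM. The gene reached 131.94, 26.71 and 209.82 FPKM in G70×GDH11 and 91.64, 276.91 and 506.28 FPKM in G70.

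Nitab4.5_0000037g0320 was the most abundant transcript that rose. K326×GDH11 leaves had 1085.03, 1363.36 and 1487.03 FPKM and K326 leaves had 120.05, 279.73 and 236.96 FPKM, a difference of 2.70 ± 0.35 on the log2 scale (adjusted p = 0.0405 by limma). GDH11 of this cross lay with K326, at 114.61, 319.85 and 361.42 FPKM. In the second cross G70×GDH11 had 789.33, 234.45 and 1544.13 FPKM and G70 had 715.22, 1921.38 and 2831.58 FPKM. The groups of K326×GDH11 and K326 did not overlap, while those of the second cross did.

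Nitab4.5_0000059g0230 was high in the hybrids and lower in most parental libraries. It had 108.29, 129.06 and 178.01 FPKM in K326×GDH11 and 14.44, 12.79 and 9.56 FPKM in K326 (difference of 3.38 ± 0.25, adjusted p = 0.00633 by limma), with 24.45, 23.31 and 40.05 FPKM in GDH11 of the same cross. Each library of K326×GDH11 was thus above each of these 6 parental libraries. In the second cross it had 122.53, 94.19 and 56.32 FPKM in G70×GDH11 and 27.16, 18.69 and 20.10 FPKM in G70. GDH11 grown with that cross had 77.31, 12.33 and 12.35 FPKM, so its highest library lay above the lowest library of G70×GDH11.

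Nitab4.5_0001541g0050 followed GDH11. Its values were 11.52, 11.13 and 10.50 FPKM in K326×GDH11 and 0.78, 1.48 and 0.63 FPKM in K326, with 16.65, 6.79 and 13.73 FPKM in GDH11 of the same cross. The difference between the hybrid and K326 was 2.64 ± 0.20 (adjusted p = 0.00735 by limma), and the hybrid libraries lay within the range of GDH11. Further rises of this kind, chosen after their values were seen, had intermediate or GDH11-like levels. Nitab4.5_0008647g0010 was listed at 0 in all 3 K326 libraries, while it had 4.76, 3.56 and 3.08 FPKM in K326×GDH11 and 10.77, 8.53 and 6.83 FPKM in GDH11. Nitab4.5_0000069g0380 had 9.68, 9.58 and 7.21 FPKM in K326×GDH11, 0.06, 0.02 and 0.08 FPKM in K326, and 16.10, 5.36 and 20.61 FPKM in GDH11.

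Rises of abundant transcripts with little spread, again chosen after their values were seen, included genes that neither parent held at the level of the hybrid. Nitab4.5_0000804g0170 had 95.83, 92.32 and 105.47 FPKM in K326×GDH11 and 19.65, 25.34 and 18.68 FPKM in K326, with 15.36, 17.15 and 18.30 FPKM in GDH11 of this cross. In the second cross it had 75.57, 90.64 and 73.15 FPKM in G70×GDH11 and 25.25, 25.44 and 25.34 FPKM in G70. Each hybrid library was thus above each library of its female parent in both crosses. Nitab4.5_0001310g0060 had 94.37, 100.48 and 107.00 FPKM in K326×GDH11 and 21.43, 15.20 and 12.29 FPKM in K326, with 11.71, 3.21 and 23.03 FPKM in GDH11 of this cross. It differed from Nitab4.5_0000804g0170 in the second cross, where G70×GDH11 had 151.08, 129.39 and 159.36 FPKM and G70 had 159.78, 240.95 and 228.76 FPKM. Nitab4.5_0000356g0100 lay between its parents, with 14.54, 14.21 and 16.94 FPKM in K326×GDH11, 2.26, 4.82 and 3.57 FPKM in K326 and 25.38, 23.51 and 33.92 FPKM in GDH11.

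Several of the 10 largest rises varied widely between libraries of a group, and 2 of them are given here. Nitab4.5_0017193g0020 had 79.55, 69.34 and 21.69 FPKM in K326×GDH11 and 0.93, 2.98 and 1.12 FPKM in K326, with values between 0.83 and 209.55 FPKM in the libraries of GDH11 of this cross. Nitab4.5_0006598g0020 had 5.38, 17.09 and 8.28 FPKM in K326×GDH11 and 0.52, 0.46 and 0 FPKM in K326. Their differences were 4.32 ± 0.52 and 2.97 ± 0.39 (adjusted p = 0.0339 and 0.0406 by limma).

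**Figure D3:**
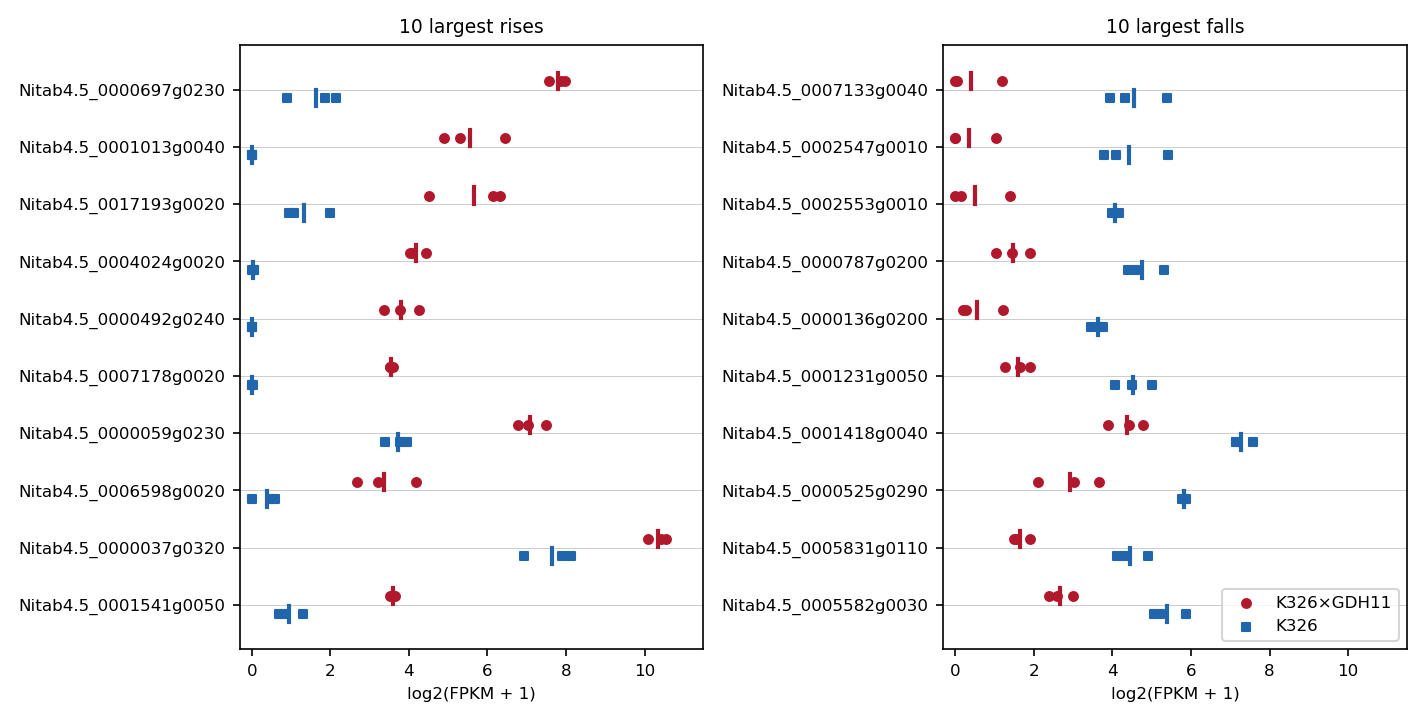
log2(FPKM + 1) in each library of K326×GDH11 (circles) and K326 (squares) for the 10 largest rises (left) and the 10 largest falls (right) among called genes with a mean of at least 10 FPKM in the higher group, with vertical ticks at the group means. In all 20 genes the 3 hybrid libraries lie on one side of the 3 K326 libraries, which the choice of genes required.

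Part of the rises were of genes that were also near 0 in the male parent. Among the 77 genes called higher, 19 were under 0.5 FPKM in all 6 GDH11 libraries of both crosses, 34 had at least 1 FPKM in all 6 of them, and 24 lay between. Among the 53 genes called lower, none was under 0.5 FPKM in all 6 GDH11 libraries. The shares of all genes tested at these GDH11 levels were not counted, so these counts have no background beside them. Over all 69500 genes, 25 had at least 1 FPKM in all 3 libraries of K326×GDH11 and less than 0.5 FPKM in all 9 libraries of K326 and GDH11. Of these 25, 19 were called higher, against 0.235% of all genes tested. The choice and the test used the same hybrid and K326 values, so these calls are not independent evidence. Such genes could also reach the test only through the 3 hybrid libraries. The reverse comparisons gave 0 genes, both for genes of at least 1 FPKM in all 3 K326 libraries and under 0.5 FPKM in K326×GDH11 and GDH11, and for genes under 0.5 FPKM in the hybrid and at least 1 FPKM in all 9 parental libraries. Without hybrid replicate 1, 30 genes were on in the hybrid and near 0 in K326 and GDH11, and the 2 reverse counts were 2 and 0. In the second cross the same count was 28 genes for G70×GDH11 against G70 and GDH11, and its reverse was 14 genes for G70 against G70×GDH11 and GDH11. These limits were chosen after the data were seen, and the GDH11 libraries are shared by both counts.

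The 25 genes were read in the libraries of the second cross, whose hybrid and female parent the choice did not use. Of the 30780 genes under 0.5 FPKM in all 9 libraries of K326 and GDH11, 39 (0.127%) had at least 1 FPKM in all 3 libraries of G70×GDH11 and 23 (0.0747%) in all 3 libraries of G70. Of the 25 genes on in K326×GDH11, 23 (92.0%) had at least 1 FPKM in all 3 libraries of G70×GDH11 and 7 (28.0%) in all 3 libraries of G70. Of the 30 genes found without hybrid replicate 1, 24 (80%) were on in G70×GDH11 and 8 (26.7%) in G70. In G70, 14 of the 25 were under 0.5 FPKM in all 3 libraries, and each of these 14 was on in G70×GDH11. They were therefore detected in both hybrids and near 0 in every library of the 3 parental lines. Among the 3 hybrid libraries, replicate 1 was the highest in 16 and the lowest in 3 of the 25 genes.

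Among the genes near 0 in all parental lines, Nitab4.5_0000492g0240 had the highest level in its lowest library. It had 12.79, 9.39 and 18.14 FPKM in K326×GDH11 and was listed at 0 in all 3 libraries of K326 and in all 6 libraries of GDH11 (adjusted p = 0.0053 by limma for the hybrid against K326). In G70×GDH11 it had 9.39, 2.00 and 29.52 FPKM, and in G70 it had 0, 0.06 and 0 FPKM. Nitab4.5_0001013g0040 was alike in pattern but missed the limit in GDH11. It had 85.61, 38.64 and 28.80 FPKM in K326×GDH11 and was listed at 0 in all 3 K326 libraries (adjusted p = 0.00557 by limma). Its level was between 0 and 0.85 FPKM in GDH11 of both crosses, 73.39, 97.28 and 135.62 FPKM in G70×GDH11, and 0, 0 and 0.71 FPKM in G70.

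Other genes of this group were steadier at lower levels, and are given after their values were seen. Nitab4.5_0021935g0010 had 3.37, 3.47 and 3.26 FPKM in K326×GDH11, against 0, 0 and 0.01 FPKM in K326 and at most 0.01 FPKM in GDH11. In the second cross it had 7.22, 9.02 and 5.39 FPKM in G70×GDH11 and at most 0.02 FPKM in G70. Nitab4.5_0000425g0090 had 3.38, 2.79 and 3.15 FPKM in K326×GDH11, against 0.01, 0.01 and 0.02 FPKM in K326. Nitab4.5_0001817g0040 had 8.27, 7.85 and 5.43 FPKM in K326×GDH11, against 0, 0 and 0.23 FPKM in K326, and was listed at 0 in all libraries of GDH11 and G70. The spread within the hybrid was small beside the gap to the parents in each of these genes.

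A second set of the 25 genes was on in G70 as well. Nitab4.5_0004024g0020 had 15.78, 20.74 and 15.32 FPKM in K326×GDH11 and 0.04, 0 and 0.04 FPKM in K326, a difference of 4.14 ± 0.18 (adjusted p = 0.00103 by limma, the smallest over all genes tested). GDH11 had at most 0.09 FPKM in both crosses, while G70×GDH11 had 46.91, 22.56 and 35.66 FPKM and G70 had 40.39, 29.09 and 18.23 FPKM. Nitab4.5_0007178g0020 had 11.17, 10.48 and 10.49 FPKM in K326×GDH11 and 0.02, 0 and 0 FPKM in K326, a difference of 3.54 ± 0.15 (adjusted p = 0.00103 by limma). It was at most 0.02 FPKM in GDH11, at 19.63, 17.81 and 21.25 FPKM in G70×GDH11 and at 11.88, 20.25 and 24.79 FPKM in G70. Nitab4.5_0004344g0010 had 4.57, 6.26 and 6.49 FPKM in K326×GDH11, was listed at 0 in K326 (adjusted p = 0.00552 by limma) and in 5 of 6 GDH11 libraries, and had 8.02, 7.73 and 23.11 FPKM in G70. These genes thus had more than 4 FPKM in every library of K326×GDH11 and of G70, and less than 0.5 FPKM in every library of both labelled parents. Whether the seed and plots of the hybrids and parents matched their labels was not tested.

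**Figure D4:**
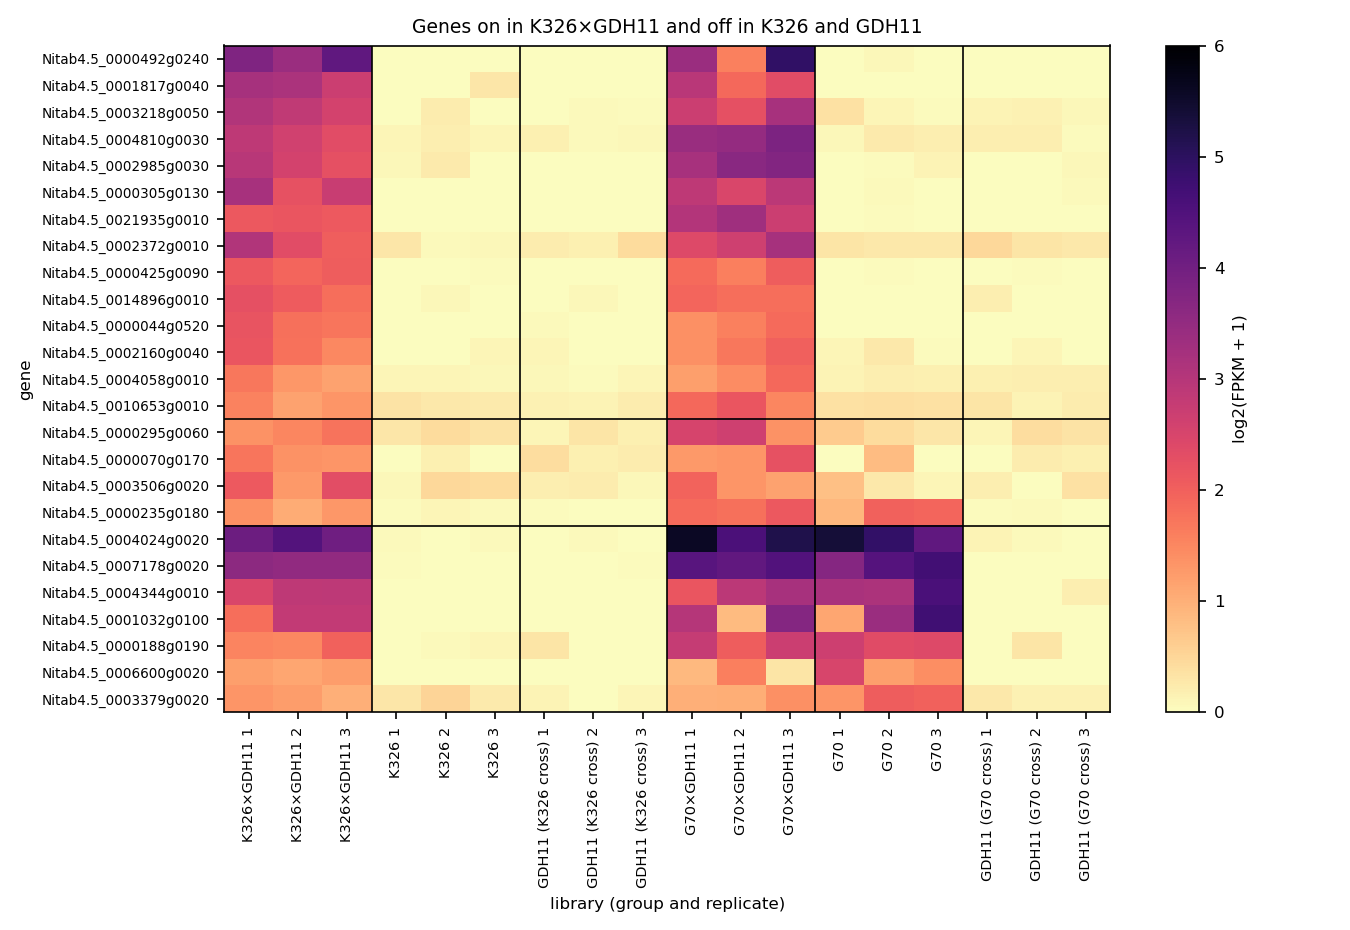
log2(FPKM + 1), by colour, of the 25 genes with at least 1 FPKM in all 3 libraries of K326×GDH11 and under 0.5 FPKM in all libraries of K326 and GDH11, in all 18 libraries. Vertical lines part the 6 groups and horizontal lines part the 14 genes under 0.5 FPKM in G70 (top), the 4 between (middle) and the 7 with at least 1 FPKM in all G70 libraries (bottom). The 3 columns of G70×GDH11 are dark for nearly all genes and those of K326 and GDH11 are pale throughout.

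More genes were listed at 0 throughout K326 than throughout the hybrid. At a level of at least 1 FPKM in all 3 libraries of the other group, 11 genes were listed at 0 in all 3 K326 libraries and 2 in all 3 libraries of K326×GDH11. Without hybrid replicate 1 these counts were 28 and 18. The first of the 2 genes listed at 0 in all 3 hybrid libraries, Nitab4.5_0001751g0020, was listed at 0 in the hybrid and had 4.84, 4.19 and 4.87 FPKM in K326 (adjusted p = 0.00528 by limma). It was also listed at 0 in all 3 libraries of G70×GDH11, while GDH11 of this cross had 0.75, 1.21 and 1.01 FPKM and G70 had 0.89, 0.40 and 1.29 FPKM. Both hybrids therefore had no value above 0 for a gene found in each library of their parents. The second, Nitab4.5_0000425g0170, had 7.60, 3.13 and 6.05 FPKM in K326 (adjusted p = 0.0228 by limma) and varied between 0 and 11.37 FPKM in the other groups.

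Among the falls, Nitab4.5_0014528g0010 was the most abundant. It had 293.59, 342.15 and 382.04 FPKM in K326×GDH11 and 1263.95, 1084.21 and 991.15 FPKM in K326, so that it fell by 1.71 ± 0.22 on the log2 scale (adjusted p = 0.0405 by limma). The hybrid lay with GDH11 of this cross, which had 354.71, 370.80 and 373.85 FPKM. GDH11 grown with the second cross varied more, at 355.45, 304.64 and 1304.86 FPKM. Nitab4.5_0000452g0110 had 104.31, 101.17 and 62.83 FPKM in K326×GDH11 and 452.35, 318.75 and 316.83 FPKM in K326 (fell by 2.02 ± 0.27, adjusted p = 0.0444 by limma). Its hybrid libraries were below those of both parents in this cross, where GDH11 had 296.69, 192.29 and 238.14 FPKM. GDH11 grown with the second cross had 66.01, 385.28 and 193.33 FPKM, and its lowest library lay within the range of the hybrid.

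The largest falls reached values near 0 in the hybrid. Nitab4.5_0007133g0040 had 1.27, 0 and 0.04 FPKM in K326×GDH11 and 41.01, 14.36 and 18.85 FPKM in K326 (fell by 4.14 ± 0.46, adjusted p = 0.0291 by limma). Nitab4.5_0002547g0010 had 1.05, 0 and 0 FPKM in K326×GDH11 and 41.72, 16.13 and 12.76 FPKM in K326 (fell by 4.09 ± 0.48, adjusted p = 0.0332 by limma). In both genes hybrid replicate 1 was the highest hybrid library. In GDH11 of this cross Nitab4.5_0007133g0040 had 17.22, 0 and 0.56 FPKM and Nitab4.5_0002547g0010 had 7.06, 0 and 0.18 FPKM, so that GDH11 overlapped the hybrid libraries in both.

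Nitab4.5_0001418g0040 and Nitab4.5_0000525g0290 also ran side by side. Nitab4.5_0001418g0040 had 20.64, 26.45 and 13.84 FPKM in K326×GDH11 and 141.12, 139.75 and 189.38 FPKM in K326 (fell by 2.92 ± 0.27, adjusted p = 0.0147 by limma). Nitab4.5_0000525g0290 had 7.18, 11.60 and 3.33 FPKM in K326×GDH11 and 56.15, 57.67 and 53.27 FPKM in K326 (fell by 2.89 ± 0.37, adjusted p = 0.0392 by limma). GDH11 of this cross was low for both, at 6.56, 0.68 and 24.95 FPKM and at 3.96, 3.69 and 10.82 FPKM. Whether such pairs are copies that share reads was not tested.

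In the remaining large falls the hybrid again lay below K326, which the choice of genes required. The highest library of GDH11 of this cross lay within or above the K326 range in Nitab4.5_0002553g0010 (16.20 FPKM), Nitab4.5_0000136g0200 (14.36 FPKM) and Nitab4.5_0001231g0050 (31.68 FPKM). All GDH11 libraries of this cross lay below K326 in Nitab4.5_0000787g0200, Nitab4.5_0005831g0110 and Nitab4.5_0005582g0030. Nitab4.5_0002553g0010 had 0.11, 0 and 1.62 FPKM in K326×GDH11 and 15.67, 17.04 and 14.92 FPKM in K326. Nitab4.5_0000787g0200 had 1.72, 2.74 and 1.06 FPKM in K326×GDH11 and 22.91, 20.03 and 39.00 FPKM in K326. Nitab4.5_0000136g0200 had 1.34, 0.15 and 0.20 FPKM in K326×GDH11 and 11.97, 9.89 and 12.55 FPKM in K326. They fell by 3.56, 3.30 and 3.07 on the log2 scale (adjusted p = 0.021, 0.018 and 0.018 by limma). Nitab4.5_0001231g0050, Nitab4.5_0005831g0110 and Nitab4.5_0005582g0030 fell by 2.92, 2.79 and 2.73 (adjusted p = 0.018, 0.0141 and 0.0188 by limma), with hybrid libraries between 1.40 and 6.95 FPKM and K326 libraries between 15.71 and 58.01 FPKM.

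The position of GDH11 was counted for both directions. Of the 53 genes called lower, 48 had a mean in GDH11 of this cross between the means of K326×GDH11 and K326, 4 had one at or below the hybrid and 1 had one at or above K326. Of the 77 genes called higher, 42 had a GDH11 mean between, 11 at or above the hybrid and 24 at or below K326. These are counts of genes chosen for the difference between the hybrid and K326, given without a test and without the shares over all genes tested. The GDH11 libraries could differ widely, so a mean between the groups need not be a level between them. For Nitab4.5_0000136g0200, called lower, GDH11 of this cross had 14.36, 0.35 and 0.54 FPKM. Among the genes called without hybrid replicate 1, the GDH11 mean lay between in 1254 of 1455 rises (86.2%) and in 1468 of 1599 falls (91.8%), so the difference in shares between rises and falls was smaller there. The called genes were spread over 128 scaffolds of the assembly, as read from the gene identifiers, and 2 scaffolds held 2 called genes each. Hybrid replicate 1 was the hybrid library nearest to K326 in 33 of the 77 rises and in 32 of the 53 falls. The share over all genes tested was not counted, so these counts have no background beside them.

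The called genes were then read in the second cross, which shares no library with this comparison. G70×GDH11 against G70 gave 123 called genes, 0.372% of those tested (0.23% higher and 0.142% lower). Of the 75 rises of K326×GDH11 that were tested there, 17 were called higher and 0 lower, with a median difference of 0.41 against −0.01 over all genes. Of the 47 falls tested, 1 was called lower and 0 higher, with a median difference of −0.42. The second cross was also fitted without G70 replicate 1 and G70×GDH11 replicate 3. No measure of how these libraries lay within their groups is given here, and leaving out chosen libraries can raise the count. Without them 1795 genes (5.37%, of which 2.19% higher and 3.18% lower) were called in the second cross. Among these were 26 of the rises as higher, 3 of the rises as lower and 11 of the falls as lower. The median difference was then 0.69 for the rises and −0.97 for the falls, against −0.16 over all genes. Of the genes called without hybrid replicate 1, 20 of the 1380 rises tested in the full second cross (1.45%) were called higher there and 13 of the 1541 falls (0.844%) lower, against 0.23% and 0.142% of all genes.

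None of the K+ genes passed the test between K326×GDH11 and K326. Of the 26 K+ genes, 25 had enough FPKM to be tested and 0 were called, against 0.396% of all genes. At an unadjusted p of at most 0.05 and a difference of at least 1, 2 were past the limits, against 7.46% of all genes. The 5 K+ genes whose 3 hybrid libraries lay above K326 and the 2 that lay below compare with 15.7% and 9.23% of all genes. The median difference of the 25 genes was −0.06, against 0.03 over all genes. Without hybrid replicate 1, 2 K+ genes were called higher and 2 lower, while the calls over all genes also went up, to 4.34% higher and 4.77% lower.

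AKT2 encodes the weakly rectifying channel that carries K+ in the phloem in Arabidopsis, and neither of its tobacco genes passed the test. Nitab4.5_0001744g0070 had 75.21, 189.46 and 217.88 FPKM in K326×GDH11 and 72.44, 46.77 and 72.86 FPKM in K326. Hybrid replicate 1 lay just above the highest K326 library, and the difference was 1.21 ± 0.42 (adjusted p = 0.192 by limma), which became 1.68 (adjusted p = 0.015 by limma) without that library. Nitab4.5_0000816g0130 had 27.66, 18.42 and 23.72 FPKM in K326×GDH11 and 41.19, 29.42 and 46.31 FPKM in K326, a difference of −0.71 ± 0.24 (adjusted p = 0.175 by limma). Primers for qRT-PCR of Nitab4.5_0001744g0070 and Nitab4.5_0009879g0010 are printed 5′ to 3′ in the lines that follow, since these were the 2 genes of the qRT-PCR set that were called without hybrid replicate 1.
Nitab4.5_0001744g0070 forward: gtctgttaatttgctaactgttgct
Nitab4.5_0001744g0070 reverse: cagtggggttcttccttggg
Nitab4.5_0009879g0010 forward: tgccaatgccaattccattcc
Nitab4.5_0009879g0010 reverse: tccatgctgtggtgaacctg

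KAT1/2 and GORK encode the inward and outward channels of guard cells in Arabidopsis. Of the 7 of these genes that were tested, all had a negative difference between −0.84 and −0.21, and 0 passed the test. The GORK gene Nitab4.5_0000777g0090 had 9.99, 3.39 and 3.51 FPKM in K326×GDH11 and 8.90, 7.78 and 11.28 FPKM in K326. The KAT1/2 gene Nitab4.5_0002275g0070 had 6.62, 2.41 and 2.32 FPKM in K326×GDH11 and 5.37, 11.54 and 5.04 FPKM in K326. In both, hybrid replicate 1 lay among the K326 libraries and hybrid replicates 2 and 3 lay below them. Without hybrid replicate 1 the differences were −1.20 (adjusted p = 0.0202 by limma) and −1.22 (adjusted p = 0.0722 by limma). The KAT1/2 gene Nitab4.5_0000010g0030 had 0.48, 0.45 and 0.16 FPKM in K326×GDH11 and 1.69, 1.07 and 1.59 FPKM in K326, without overlap (adjusted p = 0.108 by limma). The untested gene Nitab4.5_0000420g0100 stayed under 0.5 FPKM in all 6 libraries.

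CIPK5 and CIPK6 are calcium-sensor-linked kinases, and none of their 4 genes passed the test. CIPK5 gene Nitab4.5_0005171g0010 had 1.93, 4.54 and 7.23 FPKM in K326×GDH11 and 1.03, 1.37 and 0.68 FPKM in K326, a difference of 1.35 ± 0.37 (adjusted p = 0.136 by limma, 0.013 without hybrid replicate 1). The other CIPK5 gene, Nitab4.5_0000462g0210, had 1.61, 1.48 and 3.51 FPKM in K326×GDH11 and 0.98, 0.54 and 0.79 FPKM in K326. CIPK6 gene Nitab4.5_0004815g0040 had 156.91, 48.33 and 80.72 FPKM in K326×GDH11 and 161.98, 199.08 and 150.84 FPKM in K326, a difference of −0.99 ± 0.41 (adjusted p = 0.241 by limma, 0.0279 without hybrid replicate 1). Only hybrid replicate 1 reached the K326 range. The groups overlapped in the other CIPK6 gene, Nitab4.5_0006408g0010, which had 134.83, 59.58 and 92.49 FPKM in K326×GDH11 and 100.49, 161.70 and 69.63 FPKM in K326 (difference of −0.20 ± 0.40, adjusted p = 0.819 by limma).

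None of the genes of organelles passed the test. NHX1, a cation/proton antiporter of the vacuole, had 19.32, 19.88 and 19.45 FPKM in K326×GDH11 and 15.62, 15.48 and 12.62 FPKM in K326 for Nitab4.5_0002455g0040, a difference of 0.41 with a 95% interval of 0.03 to 0.78 (adjusted p = 0.22 by limma). TPC1, a cation channel of the vacuolar membrane, Nitab4.5_0000512g0020 had a difference of 0.10 with an interval of −0.40 to 0.59. KEA3, a K+/H+ antiporter of the thylakoid in Arabidopsis, had 12.87, 13.87 and 16.09 FPKM in K326×GDH11 and 10.27, 6.56 and 11.69 FPKM in K326 for Nitab4.5_0001093g0060. Its difference was 0.57 (adjusted p = 0.234 by limma). The groups overlapped in the other KEA3 gene, Nitab4.5_0000001g0390 (difference of 0.70, adjusted p = 0.41 by limma). They also overlapped in the other NHX1 gene, Nitab4.5_0003067g0080 (difference of 0.44, adjusted p = 0.362 by limma). The 4 chloroplast antiporter genes (KEA1/2 and KEA3) had differences between 0.26 and 0.70 and the 6 vacuolar genes between −0.58 and 0.44, with 0 of them called.

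**Figure D5:**
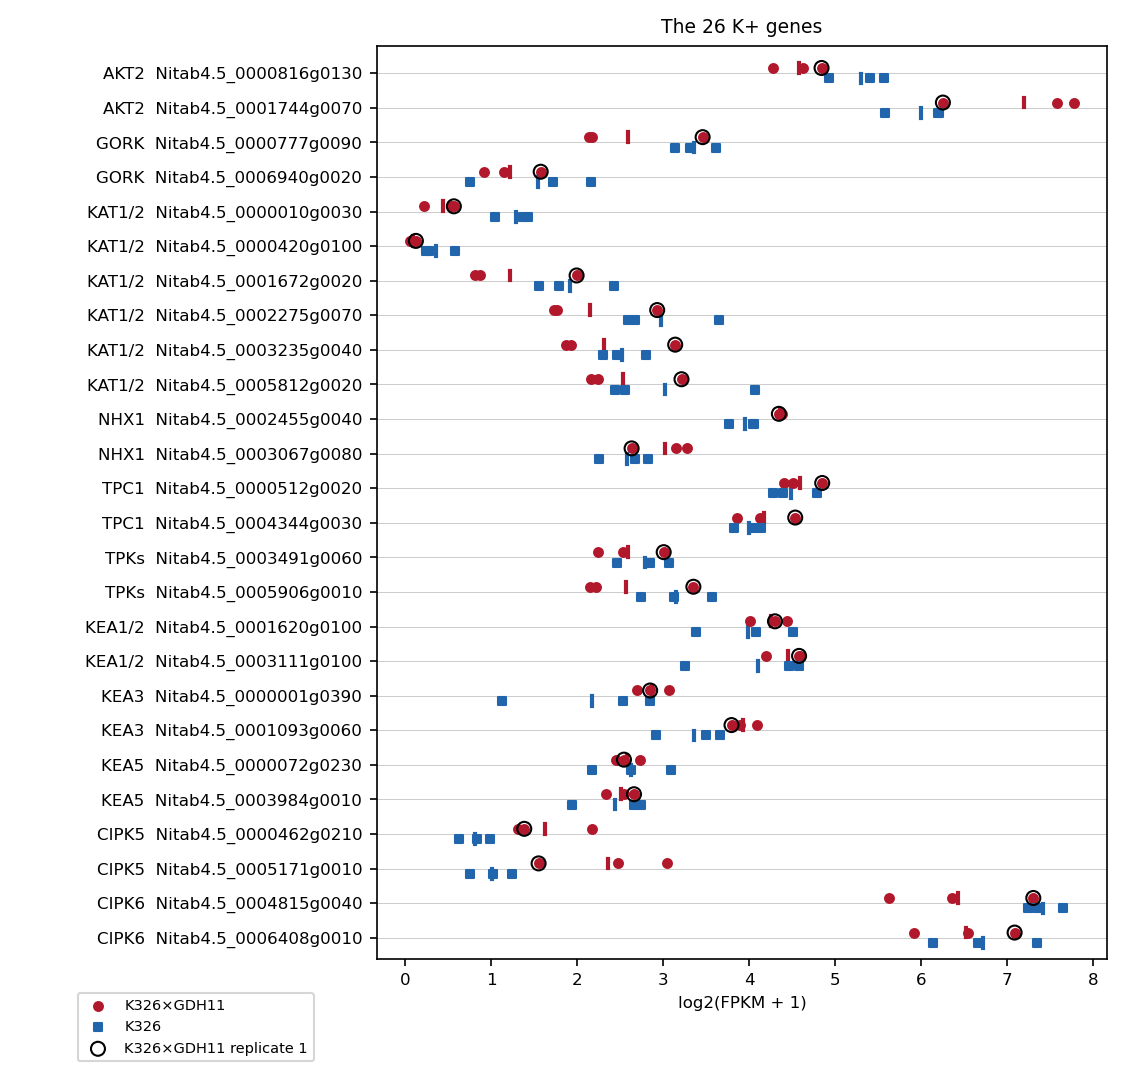
log2(FPKM + 1) of the 26 K+ genes in each library of K326×GDH11 (circles, above) and K326 (squares, below), with vertical ticks at the group means and hybrid replicate 1 ringed. In GORK Nitab4.5_0000777g0090, KAT1/2 Nitab4.5_0002275g0070 and CIPK6 Nitab4.5_0004815g0040 the ringed library lies within the range of the K326 values, and in AKT2 Nitab4.5_0001744g0070 and CIPK5 Nitab4.5_0005171g0010 it is the hybrid library nearest to K326.

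The qRT-PCR set held 10 tabulated genes, 9 of them with primers, and all 10 were tested. None was called, against 0.396% of all genes, and 5 were past the limits at an unadjusted p of at most 0.05, against 7.46% of all genes. Without hybrid replicate 1, 2 of the 10 were called, against 9.12% of all genes. The study picked these genes from those that differed in the same samples, so their counts are not independent evidence. Nitab4.5_0009879g0010 had 18.99, 39.95 and 36.75 FPKM in K326×GDH11 and 11.96, 8.25 and 12.37 FPKM in K326, a difference of 1.42 ± 0.31 (adjusted p = 0.102 by limma, 0.00911 without hybrid replicate 1). Nitab4.5_0008360g0020 had 237.61, 304.86 and 335.10 FPKM in K326×GDH11 and 163.60, 63.10 and 148.73 FPKM in K326, a difference of 1.32 ± 0.38 (adjusted p = 0.146 by limma). Both genes had no overlap between the groups. Nitab4.5_0006395g0030 had 344.49, 369.97 and 473.32 FPKM in K326×GDH11 and 259.81, 95.83 and 236.59 FPKM in K326, also without overlap. Nitab4.5_0001800g0020 had a difference of −0.30 ± 0.71, with 4.96, 15.59 and 13.77 FPKM in K326×GDH11 and 31.68, 15.65 and 3.99 FPKM in K326.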

How the data were processed

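The authors filtered reads by length and quality, aligned them to the genome of cultivar K326 and quantified genes with RSEM. The paper names TopHat2 and the submitters' processing notes name HISAT2, StringTie and RSEM, and versions are not given in the sources used here. The deposited table holds FPKM with 2 decimals, although its name says raw counts, so no count model was used and reads per gene are unknown. The authors' 6 tables of group means were not used.

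Values were put on log2(FPKM + 1) and K326×GDH11 was tested against K326 over the 3 and 3 libraries with limma 3.58.1 in R 4.3.3 (with an intensity trend; p-values adjusted by Benjamini-Hochberg across the 32792 genes that reached 1 FPKM in 3 or more of the 6 libraries), with tables and figures made in Python 3.11.15. This scale understates changes of low genes. A gene was called at adjusted p of 0.05 or less with a difference of 1 or more in size. The replicates come from a field trial in blocks by the study's methods, and whether a replicate number marks a block is not given in the sources used here. "On" means at least 1 FPKM in all 3 libraries of a group, and near 0 means under 0.5 FPKM. RefSeq identifiers matched 0 of the gene identifiers, so no sequence, position or function was added, and leaf identity was not checked against markers.

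Genes were named by rule: the 10 largest rises and falls among called genes whose groups do not overlap and whose higher mean is at least 10 FPKM, the 3 most abundant called in each direction, the study's 26 K+ genes, the 10 genes of its qRT-PCR table (9 with primers, Nitab4.5_0006395g0030 without), up to 3 genes a direction listed at 0 in the other group, and scaffolds with at least 3 called genes, of which there was none. The members and lists were chosen with earlier results of these data known, and the K+ and qRT-PCR lists were chosen by the study on these samples. Alternatives were other pseudocounts, filters, scalings, samples in the fit, a replicate block and each library left out (then with 1 FPKM in 2 or more of the other 5).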

Additional observations from a re-analysis of the deposited data

Results flagged for a closer look

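The difference between hybrid and female parent was itself compared between the crosses, as (K326×GDH11 − K326) − (G70×GDH11 − G70), with limma over these 12 libraries. It passed an adjusted p of 0.05 and a size of 1 in 106 genes (51 higher and 55 lower), 0.309% of those tested. Of the 60 named genes, 8 had an adjusted p of at most 0.05 for this contrast. All 8 were named from values of K326×GDH11 and K326, whose difference is a part of the contrast, so their number is not independent evidence. Their adjusted p-values were 0.01042 for Nitab4.5_0000697g0230, 0.002095 for Nitab4.5_0004024g0020, 0.0006896 for Nitab4.5_0007178g0020, 0.03157 for Nitab4.5_0001541g0050, 0.01529 for Nitab4.5_0004344g0010, 0.01478 for Nitab4.5_0000136g0200, 0.03926 for Nitab4.5_0000452g0110 and 0.03293 for Nitab4.5_0001751g0020. The first 5 were higher in 3 of 3 libraries of K326×GDH11 than in K326, while the libraries of G70×GDH11 and G70 overlapped. The last 3 were lower in 3 of 3 libraries of K326×GDH11 than in K326. In the second cross, G70×GDH11 and G70 had 0.18, 0.45 and 2.85 FPKM and 0, 0.04 and 0.10 FPKM for Nitab4.5_0000136g0200, and 215.94, 149.92 and 232.18 FPKM and 200.66, 150.12 and 153.78 FPKM for Nitab4.5_0000452g0110. Nitab4.5_0001751g0020 was lower in the second cross too, listed at 0 in all 3 libraries of G70×GDH11 against 0.89, 0.40 and 1.29 FPKM in G70. Without G70 replicate 1 and G70×GDH11 replicate 3, the adjusted p of Nitab4.5_0000452g0110 was 0.0722 and that of Nitab4.5_0001751g0020 was 0.0822, while Nitab4.5_0000037g0320 (contrast of 5.13, adjusted p = 0.0299 by limma) and the CIPK5 gene Nitab4.5_0000462g0210 (2.45, adjusted p = 0.0414 by limma) then passed the limits.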

How the results depend on the processing

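The count of 130 called genes depended on most settings. It was 73 with a pseudocount of 0.1 FPKM (49 higher and 24 lower), 57 in a fit over the 9 libraries of the cross (43 and 14), 67 without a filter on low values, 12 with at least 1 FPKM in all 6 libraries, 68 at a difference of 2 and 2445 at unadjusted p. The fit over all 18 libraries gave 97 (82 higher and 15 lower), median-of-ratios scaling 135 (69 and 66) and quantile normalization 140 (73 and 67). Leaving out 1 library gave between 4 and 3054 called genes and between 0 and 4 K+ genes, of which 2 were past the limits at unadjusted p. Of 350 values of the 25 called named genes under the 14 alternatives run for single genes, 152 lost the call and 0 changed direction. The cause of these shifts was not tested.

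A replicate block in the fit left 0 genes called between K326×GDH11 and K326, against 130 without it. Same-numbered libraries had correlations of their deviations from the group means of 0.0933, −0.0536 and 0.0873, none of them over 0.1. The field trial was laid out in blocks, and whether the replicate number is the block is not given in the sources used here. With the block nested in cross, 64 genes in place of 106 were called in the difference between the hybrids, and this count was between 65 and 185 with 1 library left out and 1667 at unadjusted p.

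Without G70 replicate 1 and G70×GDH11 replicate 3, 37 of the called genes, in place of 18, were called in the same direction in the second cross and 3 in the other, while the share called over all genes was 5.37% in place of 0.372%. Genes listed at 0 in one group numbered 13 at 1 FPKM, 34 at 0.5 FPKM, 2 at 5 FPKM and 46 without hybrid replicate 1, the last added after the data were seen. The 25 genes on in the hybrid and near 0 in its parents became 15 at 2 FPKM, 4 at 5 FPKM, 11 with parents under 0.1 FPKM and 30 without hybrid replicate 1, settings added after the data were seen.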
